A study of Homo sapiens with 6 samples.

Results

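Neutrophil granule proteins are represented here by 9 genes: MPO, ELANE, PRTN3, AZU1, CTSG, DEFA4, LYZ, MMP8 and SRGN. They were chosen by name, and each was found under that symbol in both deposited expression tables, so they are 9 of 13002 genes. OCI-AML2 is an established acute myeloid leukaemia line, which the labels call an engineered leukemic stem cell line. RNA was sequenced from cells that carried TAZ shRNA1, TAZ shRNA2 or a control hairpin, with 2 libraries, A and B, in each group. Tafazzin, the product of TAZ, remodels the mitochondrial lipid cardiolipin, and the question was how lowering TAZ changed transcript levels. All groups, the control included, were infected with hairpin lentivirus and then kept for 3 days in 2.0 µg/mL puromycin to select infected cells. By the labels the control hairpin is a scramble, whereas its columns in the tables carry the name GFP.

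Granule proteins are made in waves as myeloid precursors mature. Promyelocytes fill primary (azurophil) granules with myeloperoxidase, serine proteases and defensins, packed onto the proteoglycan serglycin. Collagenase and other contents of specific granules follow later, while lysozyme is made through several stages and also by monocytes.

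Levels are RPKM, reads scaled by gene length and library depth, so they can be set side by side between genes. Each library held 18818387 to 20977998 reads in listed genes. TAZ (gene ID 6901) stood at 4.02 and 4.10 RPKM in the TAZ shRNA1 libraries and at 1.47 and 2.13 in the TAZ shRNA2 libraries, against 11.3 and 11.9 in the control libraries. Of 4 progenitor markers 3 were matched, and they summed to 68.6 to 76.3 RPKM in the TAZ shRNA1 libraries and 54.9 to 59.8 in the TAZ shRNA2 libraries, against 42.3 to 43.2 in the control libraries. Nearly all of this was FLT3 and CD33, which rose with TAZ shRNA1 (log2 0.68 and 0.82, limma adjusted p = 0.0137 and 0.006) and were not called with TAZ shRNA2 (0.0827 and 0.121), while KIT was below 0.15 RPKM. The FLT3 call was lost without TAZ shRNA1 B (0.135). Of 6 mature neutrophil markers 3 were matched, and they summed to 55.2 to 55.7 RPKM with TAZ shRNA1 and 45.9 to 51.1 with TAZ shRNA2, against 28.4 to 30.4 in the control. The chemokine receptor CXCR2 averaged 17.6 ± 1.33 RPKM with TAZ shRNA1 and 16.2 ± 0.00902 with TAZ shRNA2, against 5.50 ± 0.601 in the control (SD, n = 2 each), and rose with both (log2 1.60 and 1.48, limma adjusted p = 0.00182 and 0.00255). CSF3R, the receptor for granulocyte colony-stimulating factor, rose with TAZ shRNA1 (0.68, adjusted p = 0.00954), and was not called with TAZ shRNA2 (0.45, 0.0742). The CSF3R call was lost without TAZ shRNA1 A or TAZ shRNA1 B. LTF, the lactoferrin of specific granules, was lower in the knockdown libraries and too low to be tested. LTF was 0.299 and 0.182 RPKM with TAZ shRNA1 and 0.297 and 0.3065 with TAZ shRNA2, against 0.861 and 0.456 in the control. The part of these progenitor and mature neutrophil markers in the results that follow was not tested. None of the 8 erythroid markers was matched, and the markers matched for T cells (1 of 3) and B cells (3 of 4) summed to at most 0.981 and 1.25 RPKM. Whether A and B were separate cultures is not stated in the labels, and the spread behind every p-value is that between such libraries, which may be technical only.

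The 9 genes did not move as a block. LYZ and CTSG were called higher with each TAZ hairpin than with the control, and MPO was called lower with each. Between the hairpins MPO, ELANE, PRTN3, DEFA4 and MMP8 differed. With TAZ shRNA1 3 of the 8 genes that could be tested rose (LYZ, ELANE and CTSG), 2 fell (DEFA4 and MPO) and 3 were not called, where 9.99% of all tested genes rose and 8.58% fell. With TAZ shRNA2 3 of 9 rose (LYZ, MMP8 and CTSG), 2 fell (MPO and PRTN3) and 4 were not called, where 8.12% of all tested genes rose and 7.61% fell. The median log2 fold change was 0.64 with TAZ shRNA1, against -0.00048 for all tested genes, and 0.79 with TAZ shRNA2, against -0.0045. A call is an adjusted p under 0.05 in limma on log2(RPKM + 0.5), two-sided and adjusted over all tested genes, and every log2 fold change and its standard error (SE) is on that scale. Both comparisons use the same control libraries. MMP8 reached the mean of 1 RPKM needed for testing only through the TAZ shRNA2 libraries, where it was high. The genes were picked with earlier results of these data known, so the counts describe them only.

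**Figure D1:**
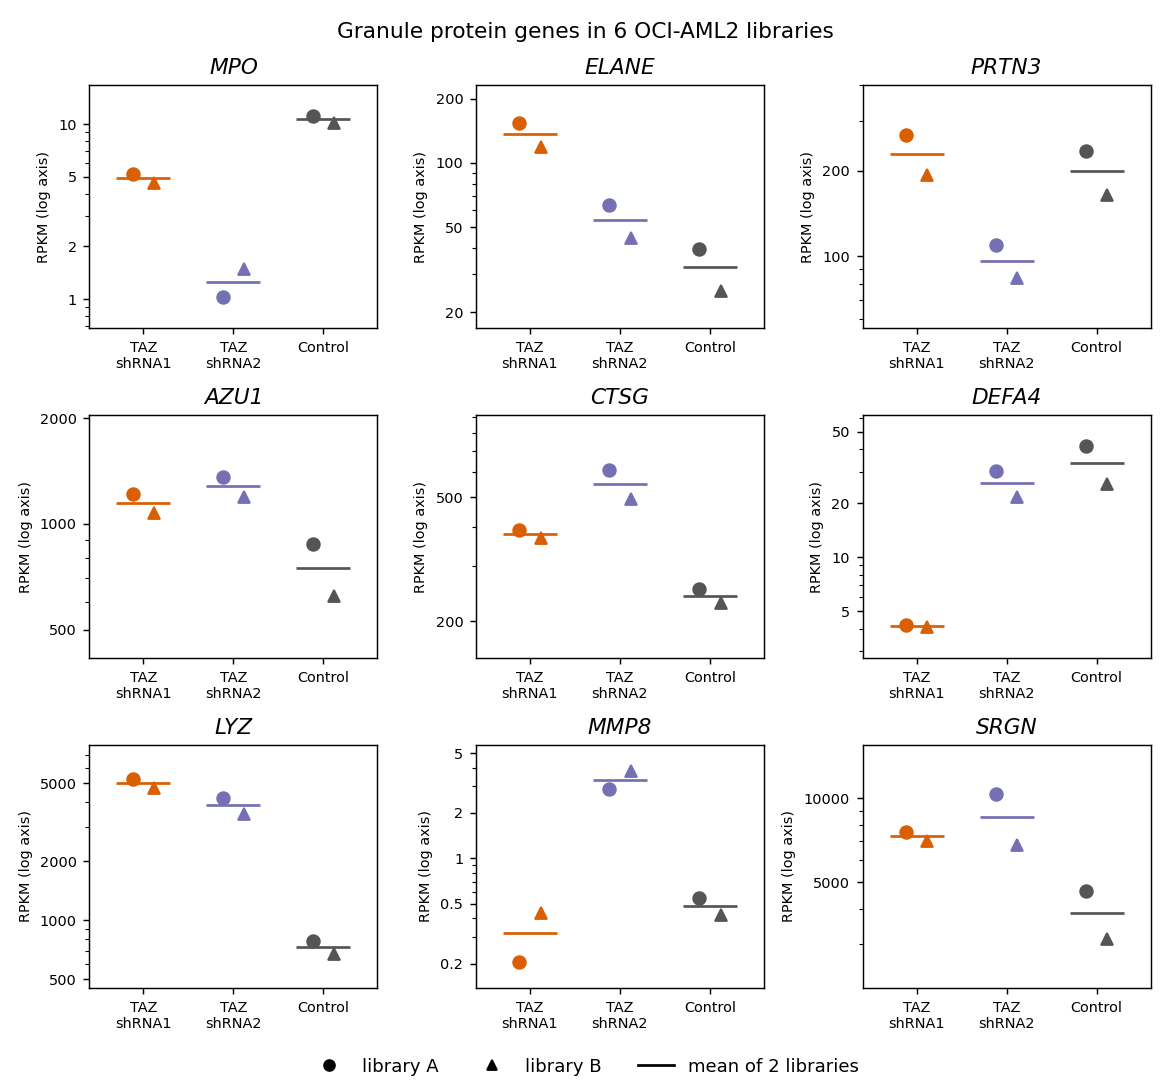
RPKM (log axis) of the 9 granule protein genes in the 2 TAZ shRNA1, 2 TAZ shRNA2 and 2 control libraries; circles are libraries A, triangles libraries B, and lines the mean of 2. LYZ and CTSG lie above the control in all 4 knockdown libraries and MPO lies below it in all 4, whereas DEFA4 is low with TAZ shRNA1 and MMP8 is high with TAZ shRNA2.

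**Figure D2:**
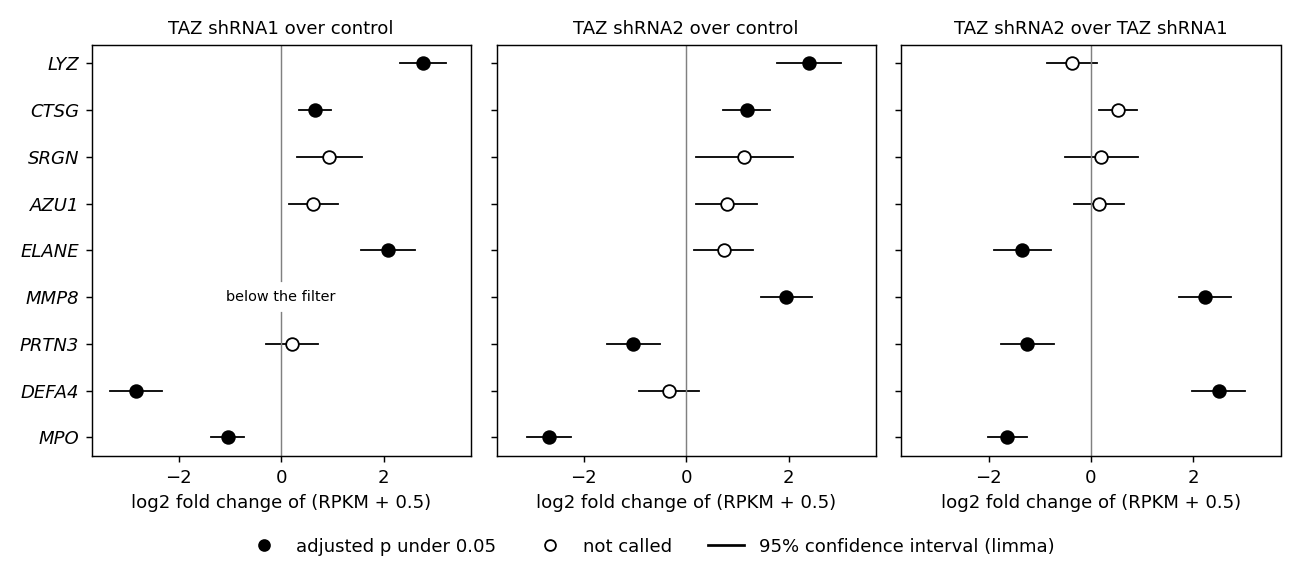
Log2 fold change of (RPKM + 0.5) for each gene (rows) in the 3 comparisons (panels); bars are limma 95% confidence intervals, filled points have an adjusted p under 0.05, and MMP8 was below the filter with TAZ shRNA1. LYZ and MPO lie far from 0 on opposite sides with each hairpin over control, and 5 genes differ between the hairpins.

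SRGN encodes serglycin, the proteoglycan whose glycosaminoglycan chains hold proteases and other cationic proteins in the granule. It was the most abundant of the 9 in every library. SRGN stood at 7563 and 7030 RPKM in the TAZ shRNA1 libraries, at 10351 and 6805 in the TAZ shRNA2 libraries, and at 4632 and 3129 in the control libraries. All 4 knockdown libraries were above both control libraries, and the TAZ shRNA2 libraries spanned the TAZ shRNA1 pair. By rank of RPKM among all genes it was 2nd in both TAZ shRNA1 libraries, 1st and 2nd in the TAZ shRNA2 libraries, and 13th and 19th in the control libraries. It was not called with either hairpin. The log2 fold change was 0.94 with TAZ shRNA1 (95% interval 0.30 to 1.57, limma adjusted p = 0.0522) and 1.14 with TAZ shRNA2 (0.19 to 2.09, adjusted p = 0.0981). Without control A or control B the TAZ shRNA1 change was called (adjusted p = 4.87e-09 and 3.97e-05), whereas without TAZ shRNA1 A or TAZ shRNA1 B it was not (0.473 and 0.498), and with any 1 library left out the TAZ shRNA2 change was not called (0.274 to 0.529). In the authors' deposited table its log2 fold changes are 0.941 and 1.15, with adjusted p of 2.02e-09 and 9.35e-14.

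LYZ encodes lysozyme, which cuts bacterial cell walls. It stood at 5236 and 4742 RPKM in the TAZ shRNA1 libraries and at 4221 and 3494 in the TAZ shRNA2 libraries, against 786 and 676 in the control libraries. The groups did not overlap, and the lowest knockdown library was well above the highest control library. LYZ was 6.83-fold higher with TAZ shRNA1 (log2 fold change 2.77, SE 0.19, limma adjusted p = 0.00104) and 5.28-fold higher with TAZ shRNA2 (2.40, SE 0.27, adjusted p = 0.0033). In these bulk libraries a change in the number of cells making a transcript and a change in its amount per cell cannot be told apart, here or for any gene that follows. LYZ took 0.788% and 0.723% of reads in listed genes in the TAZ shRNA1 libraries and 0.625% and 0.565% in the TAZ shRNA2 libraries, against 0.113% and 0.104% in the control libraries. The 95% Clopper-Pearson interval was 0.785% to 0.792% in TAZ shRNA1 A and 0.112% to 0.115% in control A, which covers counting error only. Its rank by RPKM was between 6 and 9 in the knockdown libraries and 114 or 119 in the control libraries. The difference between the hairpins was not called (log2 -0.38, 95% interval -0.86 to 0.11, adjusted p = 0.306).

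Monocytes also make lysozyme, so markers of monocytes were set beside LYZ. All 5 used (CD14, CSF1R, FCN1, VCAN and CD163) were matched, and they summed to 13.9 to 14.4 RPKM in the TAZ shRNA1 libraries and 18.6 to 23.8 in the TAZ shRNA2 libraries, against 5.95 to 9.66 in the control libraries. CSF1R, the receptor for macrophage colony-stimulating factor, was 10.1 and 11.1 RPKM with TAZ shRNA1 and 5.11 and 6.01 with TAZ shRNA2, against 4.02 and 2.16 in the control. CD14, the co-receptor for endotoxin, was 2.44 and 1.61 RPKM with TAZ shRNA1 and 13.4 and 7.97 with TAZ shRNA2, against 2.34 and 1.17 in the control. FCN1, the lectin ficolin, was 0.907 and 1.22 RPKM with TAZ shRNA1 and 4.05 and 3.53 with TAZ shRNA2, against 3.05 and 2.38 in the control. CSF1R rose (log2 1.68, limma adjusted p = 0.00704) and FCN1 fell (-1.04, 0.0138) with TAZ shRNA1, and CD14 rose with TAZ shRNA2 (2.32, 0.00568), so the markers did not move one way. Their sum was highest with TAZ shRNA2, whereas the LYZ level was highest with TAZ shRNA1. No marker was at 0 in all libraries, CD163 was at most 0.119 RPKM in each, and the part of these markers in the LYZ result was not tested.

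MPO encodes myeloperoxidase, which makes hypochlorous acid and is a classical marker of the myeloid lineage. It was a minor transcript here, at 5.16 and 4.63 RPKM in the TAZ shRNA1 libraries, 1.02 and 1.49 in the TAZ shRNA2 libraries and 11.2 and 10.1 in the control libraries. These values rest on 342 and 314 reads with TAZ shRNA1, 64 and 96 with TAZ shRNA2, and 642 and 660 in the control. The 3 groups did not overlap, and both knockdown groups lay below the control. On the log2 scale MPO fell by 1.05 with TAZ shRNA1 (SE 0.14, limma adjusted p = 0.00528), and it fell by 2.68 with TAZ shRNA2 (SE 0.19, adjusted p = 0.00245). Among the 10659 genes tested with TAZ shRNA2 its p-value ranked 1st. It was also lower with TAZ shRNA2 than with TAZ shRNA1 (log2 -1.63, SE 0.17, adjusted p = 0.00137). Within each library LYZ exceeded MPO 1015-fold and 1025-fold with TAZ shRNA1 and 4122-fold and 2351-fold with TAZ shRNA2, against 70.4-fold and 66.8-fold in the control.

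The serine protease family has 4 members here. CTSG encodes cathepsin G, ELANE neutrophil elastase, PRTN3 proteinase 3, and AZU1 azurocidin, a family member that has lost its protease activity. RefSeq promoters were at hand for AZU1, PRTN3 and CTSG and for MMP8, 4 of the 9 genes. Those of AZU1 and PRTN3 are shown because the genes are neighbours, of which only PRTN3 was called with TAZ shRNA2. Those of the other 2 are shown because the genes were called in at least 1 comparison with the control. Each is the 250 bases before the annotated start on the gene's strand in GRCh38.p14: AZU1 at chr19:827587-827836 (plus strand), PRTN3 at chr19:840749-840998 (plus), CTSG at chr14:24576251-24576500 (minus) and MMP8 at chr11:102724955-102725204 (minus). Capitals mark matches to motifs of C/EBP factors (TTNNGNAA), PU.1 (GAGGAA) and RUNX1 (TGTGGT), each on both strands, and to the TATA box (TATAAA) on the gene's strand.
AZU1: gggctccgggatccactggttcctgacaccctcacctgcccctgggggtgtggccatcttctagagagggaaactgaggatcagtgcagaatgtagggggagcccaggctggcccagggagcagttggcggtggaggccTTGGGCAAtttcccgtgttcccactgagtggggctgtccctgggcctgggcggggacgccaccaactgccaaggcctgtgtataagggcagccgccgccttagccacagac
PRTN3: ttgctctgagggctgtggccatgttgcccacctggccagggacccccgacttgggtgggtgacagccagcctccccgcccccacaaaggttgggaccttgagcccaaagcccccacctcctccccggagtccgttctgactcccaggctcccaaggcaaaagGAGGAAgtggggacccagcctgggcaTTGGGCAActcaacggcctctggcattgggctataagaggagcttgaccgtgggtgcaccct
CTSG: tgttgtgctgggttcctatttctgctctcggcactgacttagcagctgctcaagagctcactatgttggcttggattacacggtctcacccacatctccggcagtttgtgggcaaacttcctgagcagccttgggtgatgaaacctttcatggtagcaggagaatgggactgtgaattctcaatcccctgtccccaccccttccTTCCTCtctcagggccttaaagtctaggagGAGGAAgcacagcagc
MMP8: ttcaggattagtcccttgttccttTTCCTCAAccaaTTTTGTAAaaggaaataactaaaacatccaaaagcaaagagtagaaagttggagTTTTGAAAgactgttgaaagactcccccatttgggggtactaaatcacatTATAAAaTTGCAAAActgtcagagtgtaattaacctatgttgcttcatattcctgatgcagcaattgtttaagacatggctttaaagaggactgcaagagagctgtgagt

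AZU1 and PRTN3 each held 1 C/EBP match, and it had the same letters, TTGGGCAA, in both, beginning 111 bases before the AZU1 start and 62 bases before the PRTN3 start. PRTN3 also held a PU.1 match that began 88 bases before the start. CTSG held 2 PU.1 matches, that nearer the start beginning 16 bases before it and the other, on the opposite strand, 46 bases before it. MMP8 held 4 C/EBP matches, 1 PU.1 match that lies within a C/EBP match, and the TATA letters beginning 110 bases before the start. RUNX1 letters were in none of the 4 windows. Only the letters given were matched, so variants of the TATA box, such as tataag near the end of the AZU1 and PRTN3 windows, are unmarked. Among 35116 RefSeq promoters of this length, 33.2% held the C/EBP letters, 23.6% the PU.1 letters, 11.0% the RUNX1 letters and 6.8% the TATA letters. The letters are a description of these windows and say nothing of binding, which was not measured.

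CTSG was higher with each TAZ hairpin. It stood at 392 and 370 RPKM in the TAZ shRNA1 libraries and 611 and 491 in the TAZ shRNA2 libraries, against 255 and 229 in the control libraries. The groups formed 3 steps without overlap. The log2 fold change was 0.66 with TAZ shRNA1 (SE 0.13, limma adjusted p = 0.0194) and 1.18 with TAZ shRNA2 (SE 0.20, adjusted p = 0.0113). The TAZ shRNA1 call was lost without TAZ shRNA1 A (adjusted p = 0.174) or TAZ shRNA1 B (0.168). Between the hairpins the log2 difference was 0.52 (95% interval 0.15 to 0.89) and was not called (adjusted p = 0.0768).

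ELANE was highest with TAZ shRNA1. It stood at 154 and 118 RPKM in the TAZ shRNA1 libraries and 63.1 and 44.7 in the TAZ shRNA2 libraries, against 39.7 and 25.2 in the control libraries. The 3 groups did not overlap, although the lower TAZ shRNA2 library was close to the higher control library. ELANE was 4.2-fold higher with TAZ shRNA1 (log2 2.08, SE 0.22, limma adjusted p = 0.00327). With TAZ shRNA2 its log2 fold change was 0.74 (95% interval 0.16 to 1.31) and was not called (adjusted p = 0.0829). It was called without control A (log2 1.06) or TAZ shRNA2 B (0.99) and not without control B (0.42) or TAZ shRNA2 A (0.49). The authors' deposited table gives a log2 fold change of 0.751 for ELANE with TAZ shRNA2, with an adjusted p of 1.31e-07. The level with TAZ shRNA2 was lower than with TAZ shRNA1 (log2 -1.34, SE 0.25, adjusted p = 0.0124), a call lost without TAZ shRNA1 A (0.114), TAZ shRNA1 B (0.0592) or TAZ shRNA2 B (0.0708).

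PRTN3 fell with TAZ shRNA2. It stood at 267 and 193 RPKM in the TAZ shRNA1 libraries and 109 and 83.8 in the TAZ shRNA2 libraries, against 234 and 164 in the control libraries. The TAZ shRNA1 and control libraries interleaved, and both TAZ shRNA2 libraries lay below all others. With TAZ shRNA1 the log2 fold change was 0.21 (95% interval -0.30 to 0.72, limma adjusted p = 0.514), and its sign changed without control B (-0.05) or TAZ shRNA1 A (-0.02), while without control A it was called (adjusted p = 0.014). With TAZ shRNA2 the log2 fold change of PRTN3 was -1.03 (SE 0.22, adjusted p = 0.0241), a call lost without TAZ shRNA2 B (0.0621). The log2 difference between TAZ shRNA2 and TAZ shRNA1 was -1.24 (SE 0.23, adjusted p = 0.0124), lost without TAZ shRNA1 A (0.122) or TAZ shRNA2 B (0.0717).

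AZU1, at 1217 and 1074 RPKM in the TAZ shRNA1 libraries and 1361 and 1196 in the TAZ shRNA2 libraries, against 874 and 623 in the control libraries, was the most abundant of the 4. Every knockdown library was above both control libraries, and the hairpins overlapped. The log2 fold change was 0.63 with TAZ shRNA1 (95% interval 0.15 to 1.11, limma adjusted p = 0.0707) and 0.79 with TAZ shRNA2 (0.19 to 1.39, adjusted p = 0.0778), and neither was called. Without control A or control B the TAZ shRNA1 change was called (adjusted p = 2.21e-06 and 0.00842), whereas without TAZ shRNA1 A or TAZ shRNA1 B it was not (0.421 and 0.346), and with any 1 library left out the TAZ shRNA2 change was not called (0.126 to 0.449). The authors' deposited table gives adjusted p of 5.35e-05 and 1.24e-07 for the 2 changes.

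AZU1, PRTN3, ELANE and CFD lie next to each other on chromosome 19 in RefSeq's gene order, with PTBP1 and PLPPR3 (LPPR3 in the tables) before them and MED16 after them. CFD encodes complement factor D, a serine protease stored in later granules. It stood at 73.2 and 77.7 RPKM in the TAZ shRNA1 libraries and 72.3 and 57.5 in the TAZ shRNA2 libraries, against 38.3 and 22.9 in the control libraries. CFD rose with TAZ shRNA1 (log2 1.33, SE 0.22, limma adjusted p = 0.0103) and with TAZ shRNA2 (1.11, SE 0.25, adjusted p = 0.0262). On the near side PTBP1, a splicing factor, had log2 fold changes of 0.04 with TAZ shRNA1 (adjusted p = 0.837) and -0.01 with TAZ shRNA2 (0.976). Those of PLPPR3 were -0.002 with TAZ shRNA1 (0.995) and -0.30 with TAZ shRNA2 (0.212). MED16, a subunit of the Mediator complex, fell by 0.66 with TAZ shRNA1 (adjusted p = 0.0238) and had a log2 fold change of -0.35 with TAZ shRNA2 (0.135). With TAZ shRNA2 PRTN3 fell and CFD rose, while AZU1 and ELANE were not called. The difference between these genes was not itself tested.

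**Figure D3:**
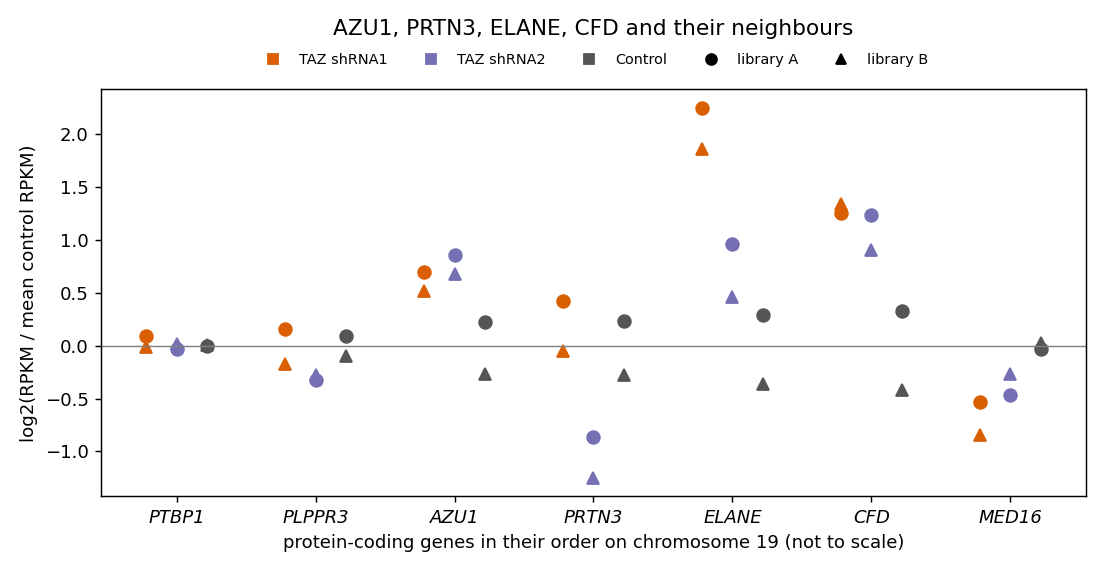
Log2 of RPKM over the mean control RPKM for AZU1, PRTN3, ELANE, CFD and their neighbours, in their order on chromosome 19 (horizontal axis, not to scale), in each of the 6 libraries. PTBP1 stays near 0 in every library, ELANE is highest with TAZ shRNA1, and PRTN3 is lowest with TAZ shRNA2.

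Ratios between these genes within a library do not depend on how libraries were scaled. The ratio of ELANE to PRTN3, singled out after its values were seen, was 0.578 and 0.613 with TAZ shRNA1 and 0.578 and 0.533 with TAZ shRNA2, against 0.169 and 0.154 in the control. All 4 knockdown libraries were close together and far from the control. The ratio of PRTN3 to AZU1 was 0.22 and 0.179 with TAZ shRNA1 and 0.0803 and 0.07 with TAZ shRNA2, against 0.268 and 0.263 in the control. That ratio was lowest in the TAZ shRNA2 libraries.

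DEFA4 encodes defensin alpha 4, an antimicrobial peptide of primary granules. It stood at 4.21 and 4.11 RPKM in the TAZ shRNA1 libraries and 30.3 and 21.8 in the TAZ shRNA2 libraries, against 41.5 and 25.6 in the control libraries. The TAZ shRNA1 libraries were far below all others, and the TAZ shRNA2 libraries overlapped the control. With TAZ shRNA1, where 47 reads were counted in each library, DEFA4 fell by 2.83 (log2, with SE 0.22 and a limma adjusted p = 0.00157). With TAZ shRNA2 its log2 fold change was -0.34 (95% interval -0.92 to 0.25, adjusted p = 0.382). That value was 0.01 without control A and -0.68, then called (adjusted p = 0.0349), without control B. The hairpins differed by 2.49 on the log2 scale, with the higher level under TAZ shRNA2 (SE 0.23, adjusted p = 0.00106).

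MMP8 encodes the neutrophil collagenase, a protein of specific granules. It stood at 0.206 and 0.434 RPKM in the TAZ shRNA1 libraries and 2.88 and 3.78 in the TAZ shRNA2 libraries, against 0.549 and 0.42 in the control libraries. The values rest on 13 and 28 reads with TAZ shRNA1 and 171 and 232 with TAZ shRNA2, against 30 and 26 in the control. The TAZ shRNA2 libraries stood above all others, and TAZ shRNA1 overlapped the control. With TAZ shRNA2 MMP8 rose 6.87-fold by mean RPKM (log2 1.95 with the pseudocount of 0.5, SE 0.21, limma adjusted p = 0.00317). It reached the filter of 1 RPKM only through the TAZ shRNA2 libraries. It was therefore not tested against the control with TAZ shRNA1, and with no filter its log2 fold change there was -0.27 (adjusted p = 0.304). The level with TAZ shRNA2 exceeded that with TAZ shRNA1 (log2 2.23, SE 0.22, adjusted p = 0.00128).

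Setting the hairpins against each other in 1 fit of all 6 libraries, 2 of the 9 genes rose with TAZ shRNA2 over TAZ shRNA1 (DEFA4 and MMP8), 3 fell (MPO, ELANE and PRTN3) and 4 were not called. Of all 10660 tested genes 4.78% rose and 6.10% fell in this comparison. MMP8 entered it only through the TAZ shRNA2 libraries. The median of the 9 genes was 0.16, against -0.0086 for all tested genes. For the genes not called besides LYZ and CTSG, the log2 difference was 0.16 for AZU1 (95% interval -0.32 to 0.64, limma adjusted p = 0.685) and 0.20 for SRGN (-0.51 to 0.91, adjusted p = 0.732), which leaves room for differences in either direction. TAZ was lower with TAZ shRNA2 than with TAZ shRNA1 (log2 -1.001, adjusted p = 0.00801). MPO had the same order over the groups as TAZ, whereas ELANE, PRTN3, DEFA4 and MMP8 did not.

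The order of the 9 levels changed between the groups. With TAZ shRNA1 it ran SRGN, LYZ, AZU1, CTSG, PRTN3, ELANE, MPO, DEFA4, MMP8, and with TAZ shRNA2 it ran SRGN, LYZ, AZU1, CTSG, PRTN3, ELANE, DEFA4, MMP8, MPO. In both orders the libraries of neighbouring genes did not overlap. In the control it ran SRGN, AZU1, LYZ, CTSG, PRTN3, DEFA4, ELANE, MPO, MMP8, and the libraries overlapped between AZU1 and LYZ, between CTSG and PRTN3, and between DEFA4 and ELANE. From highest to lowest mean the 9 genes spanned 22786-fold with TAZ shRNA1 and 6835-fold with TAZ shRNA2, against 8013-fold in the control. MPO was thus the least abundant of the 9 with TAZ shRNA2. The 9 genes together took 1.92% and 1.77% of reads in listed genes with TAZ shRNA1 and 2.09% and 1.66% with TAZ shRNA2, against 0.795% and 0.604% in the control, most of them from SRGN and LYZ.

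Library A was above library B for 8 of the 9 genes with TAZ shRNA1 and for 7 with TAZ shRNA2, and for all 9 in the control. The median log2 difference of A over B was 0.14 with TAZ shRNA1, 0.31 with TAZ shRNA2 and 0.49 in the control, where the medians of all genes were 0.01 with TAZ shRNA1, 0.03 with TAZ shRNA2 and -0.01 in the control. Of all genes 53.4% were higher in A with TAZ shRNA1, 54.1% with TAZ shRNA2 and 48.3% in the control. The groups' A libraries shared the excess of the granule genes. Apart from a fit with the letter as a replicate block, given among the other settings at the end, its part in the spread was not tested.

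Genes whose profile over the 6 libraries lay nearest were sought for the 5 genes that spanned at least 2 log2 units, by root mean square distance of centred log2 values among 10660 genes. Nearest to MPO were DDN (0.20 log2 units), TAZ itself (0.27) and MIR3687 (0.30). DDN stood at 2.82 and 2.76 RPKM with TAZ shRNA1 and 0.866 and 1.08 with TAZ shRNA2, against 8.12 and 7.43 in the control. Nearest to ELANE were ALDH2 (0.22), a mitochondrial aldehyde dehydrogenase, TIFAB (0.22) and the gelatinase gene MMP2 (0.25). Nearest to LYZ were the defensin DEFB1 (0.23), the chemokine receptor CCR2 (0.27) and FGL2 (0.28). Nearest to DEFA4 was the histone gene H2AFX (0.20), then RETN (0.41), which encodes resistin, and S100A8 (0.47), a calcium-binding protein of neutrophils and monocytes. Nearest to MMP8 were COL24A1 (0.25), LGALS3BP (0.26) and CYP1B1 (0.30).

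S100A8 stood at 141 and 120 RPKM with TAZ shRNA1 and 1298 and 815 with TAZ shRNA2, against 831 and 429 in the control. RETN stood at 17.1 and 13.3 RPKM with TAZ shRNA1 and 131 and 87.2 with TAZ shRNA2, against 81.5 and 60.8 in the control. Like DEFA4, both were lowest in the TAZ shRNA1 libraries. These are distances over 3 groups of 2 libraries, and many genes share so simple a profile.

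**Figure D4:**
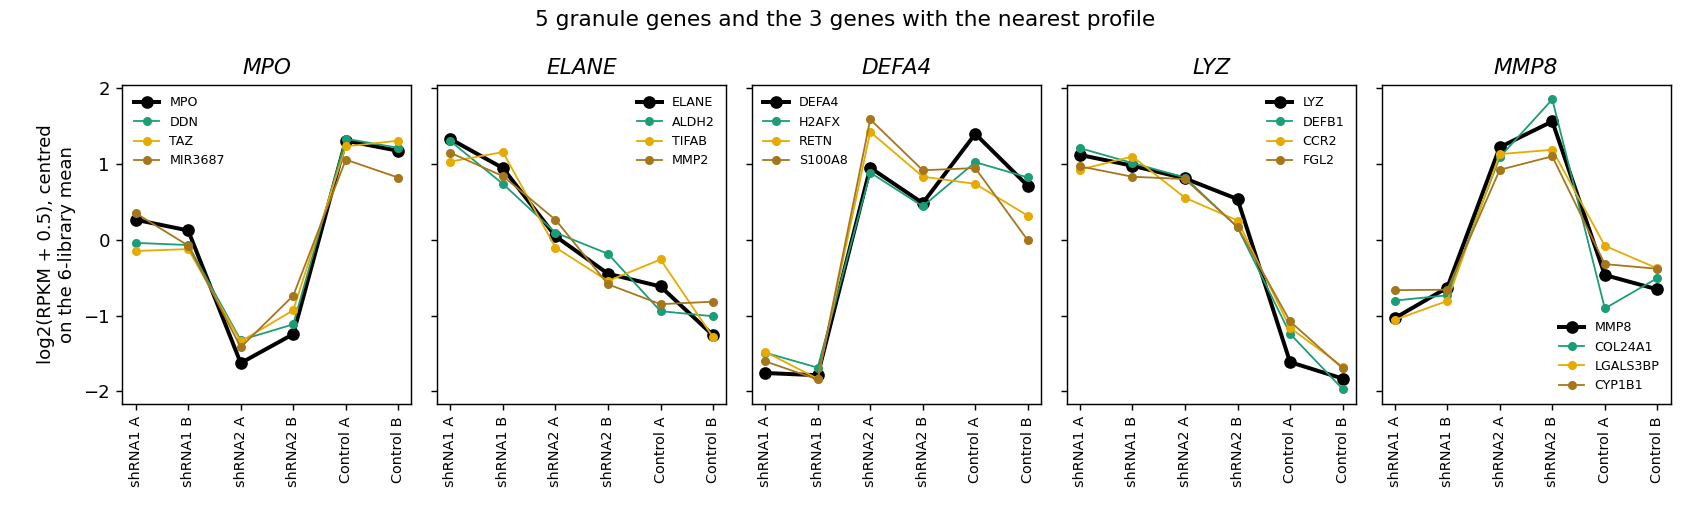
Log2(RPKM + 0.5), centred on the mean of 6 libraries, for MPO, ELANE, DEFA4, LYZ and MMP8 (black) and the 3 genes nearest to each (colours), by library. MPO and TAZ are lowest with TAZ shRNA2 and highest in the control, and the genes beside DEFA4 are lowest with TAZ shRNA1.

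Related genes were described by list. The counts below are to be read against the shares of all tested genes, which were 9.99% rising and 8.58% falling with TAZ shRNA1, and 8.12% rising and 7.61% falling with TAZ shRNA2. Where a list's share is near these, its count is no result about the list.

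Other contents of primary granules moved in both directions. Of 12 listed genes 9 were matched and tested. With TAZ shRNA1 2 rose (CD68 and GAA) and 3 fell (BPI, PRSS57 and RNASE3), and with TAZ shRNA2 3 rose (CD68, NPC2 and GUSB) and 2 fell (BPI and PRSS57). PRSS57, a serine protease of azurophil granules, averaged 16.9 ± 0.856 RPKM with TAZ shRNA1 and 11.2 ± 1.11 with TAZ shRNA2, against 34.2 ± 5.56 in the control (SD, n = 2 each, here and for the list genes that follow). Its log2 fold change was -0.99 with TAZ shRNA1 (limma adjusted p = 0.00705) and -1.56 with TAZ shRNA2 (0.00271). BPI, which binds bacterial endotoxin, averaged 7.66 ± 0.756 RPKM with TAZ shRNA1 and 13.5 ± 0.683 with TAZ shRNA2, against 27.6 ± 10.1 in the control, and was lower with TAZ shRNA1 (log2 -1.74, adjusted p = 0.00552) and with TAZ shRNA2 (-0.96, 0.0344). CD68, a lysosomal membrane protein, averaged 94.0 ± 13.1 RPKM with TAZ shRNA1 and 152 ± 21.5 with TAZ shRNA2, against 38.0 ± 13.8 in the control. It rose with TAZ shRNA1 (1.34, adjusted p = 0.013) and with TAZ shRNA2 (2.03, 0.00436). Median log2 fold changes of the 9 were 0.30 with TAZ shRNA1 and 0.42 with TAZ shRNA2.

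Of 18 specific granule genes 13 were matched. With TAZ shRNA1 8 could be tested, and 1 rose (CYBB) and 2 fell (SLPI and TCN1), with a median of -0.05. With TAZ shRNA2 9 could be tested, and 3 rose (CEACAM6, TCN1 and CYBB) and none fell, with a median of 0.49. The 1 rise of 8 is near the 9.99% of all tested genes. TCN1, which binds vitamin B12, averaged 1.03 ± 0.341 RPKM with TAZ shRNA1 and 4.98 ± 0.482 with TAZ shRNA2, against 2.65 ± 0.234 in the control. It fell by 1.06 with TAZ shRNA1 (limma adjusted p = 0.0154) and rose by 0.80 with TAZ shRNA2 (0.0223), and the hairpins differed (1.86, adjusted p = 0.00139). SLPI, an inhibitor of elastase and cathepsin G, averaged 9.46 ± 0.894 RPKM with TAZ shRNA1 and 25.6 ± 6.96 with TAZ shRNA2, against 39.2 ± 13.7 in the control, and fell with TAZ shRNA1 (-1.95, adjusted p = 0.00354). CYBB, the catalytic subunit of the NADPH oxidase, averaged 74.2 ± 1.79 RPKM with TAZ shRNA1 and 55.3 ± 1.15 with TAZ shRNA2, against 33.8 ± 4.50 in the control.

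Of 13 genes of gelatinase granules and secretory vesicles 11 were matched. With TAZ shRNA1 2 of 9 tested rose (CFD and MMP25) and 2 fell (FCN1 and MMP9), and with TAZ shRNA2 3 of 10 rose (ITGB2, FPR1 and CFD) and 1 fell (MMP25). FPR1 reached the filter only through the TAZ shRNA2 libraries, and 1 fall of 10 is near the 7.61% of all tested genes. MMP25, a membrane-anchored metalloproteinase, averaged 13.6 ± 0.00657 RPKM with TAZ shRNA1 and 4.92 ± 0.177 with TAZ shRNA2, against 7.59 ± 0.176 in the control. It rose with TAZ shRNA1 (0.80, limma adjusted p = 0.00792), fell with TAZ shRNA2 (-0.58, 0.0377) and differed between the hairpins (-1.38, 0.000905). FCN1, the lectin ficolin of monocytes and neutrophils, averaged 1.06 ± 0.22 RPKM with TAZ shRNA1 and 3.79 ± 0.367 with TAZ shRNA2, against 2.72 ± 0.471 in the control, and differed between the hairpins in the opposite direction (1.46, adjusted p = 0.00282).

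Of genes that fold, process and sort granule proteins, all 26 listed were matched. With TAZ shRNA1 8 of 26 rose and 2 fell (HAX1 and FURIN), and with TAZ shRNA2 2 of 25 rose (AP3B1 and UNC13D) and none fell. The 2 falls with TAZ shRNA1 and the 2 rises with TAZ shRNA2 are near the 8.58% and 8.12% of all tested genes. The 8 that rose, by 0.45 to 0.77 on the log2 scale, were GNPTAB, AP3B1, LYST, RAB27A, UNC13D, CSGALNACT1, CSGALNACT2 and XYLT1. Each of these calls was lost without TAZ shRNA1 A and also without TAZ shRNA1 B. CSGALNACT1 reached the filter only through the TAZ shRNA1 libraries. AP3B1, an adaptor subunit that sorts elastase to granules, averaged 28.3 ± 0.19 RPKM with TAZ shRNA1 and 27.9 ± 2.36 with TAZ shRNA2, against 17.7 ± 2.32 in the control. It rose with TAZ shRNA1 (log2 0.67, limma adjusted p = 0.017) and with TAZ shRNA2 (0.64, 0.0332). HAX1, a mitochondrial protein whose loss causes congenital neutropenia, averaged 55.2 ± 0.218 RPKM with TAZ shRNA1 and 62.6 ± 12.8 with TAZ shRNA2, against 106 ± 23.8 in the control. Its log2 fold change was -0.91 with TAZ shRNA1 (adjusted p = 0.0134) and -0.75 with TAZ shRNA2 (0.0528).

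Of 15 protease inhibitors 13 were matched. With TAZ shRNA1 3 of 10 tested rose (SERPINB8, CST3 and TIMP2) and none fell, and with TAZ shRNA2 4 of 11 rose (TIMP1, SERPINB10, SERPINA1 and CST3) and CST7 fell. SERPINA1 reached the filter only through the TAZ shRNA2 libraries. SERPINB8 averaged 106 ± 0.64 RPKM with TAZ shRNA1 and 51.5 ± 2.19 with TAZ shRNA2, against 38.5 ± 3.28 in the control, and was higher with TAZ shRNA1 than with the control (1.45, limma adjusted p = 0.00157). CST7, which encodes cystatin F, averaged 9.74 ± 0.278 RPKM with TAZ shRNA1 and 3.59 ± 0.315 with TAZ shRNA2, against 11.8 ± 0.724 in the control, and fell with TAZ shRNA2 (-1.59, adjusted p = 0.00245).

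Of 15 transcription factors of granule genes 14 were matched and tested. With TAZ shRNA1 IRF8 rose and KLF5, CEBPE and CEBPB fell, and with TAZ shRNA2 KLF4 rose and KLF5 fell. CEBPE, which drives specific granule genes, averaged 11.8 ± 2.16 RPKM with TAZ shRNA1 and 14.7 ± 4.74 with TAZ shRNA2, against 29.5 ± 11.8 in the control. Its log2 fold change was -1.24 with TAZ shRNA1 (limma adjusted p = 0.0215) and -0.96 with TAZ shRNA2 (0.0687). IRF8, a factor of the monocyte lineage, averaged 219 ± 14.9 RPKM with TAZ shRNA1 and 119 ± 20.6 with TAZ shRNA2, against 111 ± 25.0 in the control. The other 10 factors with TAZ shRNA1 and 12 with TAZ shRNA2 were not called. The single rises and the single fall among 14 are near the shares of all tested genes (9.99% rising with TAZ shRNA1, 8.12% rising and 7.61% falling with TAZ shRNA2).

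With each library left out in turn, a check added after the data were seen, some list calls were lost in every comparison. They were most of those with TAZ shRNA1 and between the hairpins, and fewer with TAZ shRNA2. No such share over all tested genes was taken, so the losses are no result about the lists. Of the calls given above with values, those of AP3B1, MMP25, TCN1 and FCN1 against the control, and that of CYBB with TAZ shRNA2, were among those lost in at least 1 fit. Those of PRSS57, BPI, CD68, SLPI, CFD, SERPINB8, CST7, CEBPE, IRF8 and HAX1 against the control were not. RNASE3 has a related and more abundant gene, RNASE2, at 311 RPKM against 14.3 for RNASE3 with TAZ shRNA1. RNASE2 was not called with TAZ shRNA1 (limma adjusted p = 0.0785) or TAZ shRNA2 (0.86). How reads were shared between these genes was not tested.

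Of 5 eosinophil and basophil markers 4 were matched, and 1 of them, PRG2, was high enough to be tested. The 4 summed to 241 to 256 RPKM with TAZ shRNA1 and 59.8 to 140 with TAZ shRNA2, against 68.1 to 118 in the control. Nearly all of it was PRG2, a granule protein of eosinophils, at 255 and 239 RPKM with TAZ shRNA1 and 139 and 58.4 with TAZ shRNA2, against 117 and 67.3 in the control, while EPX, which defines the eosinophil, was at most 0.37 in every library. PRG2 rose with TAZ shRNA1 (log2 1.47, limma adjusted p = 0.00954) and was not called with TAZ shRNA2 (0.02, 0.979). Like ELANE it was highest with TAZ shRNA1, and its part in the ELANE result was not tested. Megakaryocyte markers, 2 of 4 matched, summed to 1.55 to 2.02 RPKM with TAZ shRNA1 and 3.67 to 4.44 with TAZ shRNA2, against 4.82 to 6.16 in the control. Of these GP9 fell with TAZ shRNA1 (log2 -1.45, limma adjusted p = 0.00535) and was not called with TAZ shRNA2 (-0.38, 0.2). The hairpins differed in GP9 (1.08, adjusted p = 0.0113), a call lost without TAZ shRNA1 B or TAZ shRNA2 A.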

How the data were processed

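RNA of OCI-AML2 cells was sequenced from directional libraries, per the labels' protocols. Per the submitters' processing notes, the build was hg19 and the tools were DESeq 1.18.0, edgeR 3.8.6, HTSeq 0.6.1p2, TopHat2 2.0.11 and Trim Galore 0.4.0, with no roles stated. Each TAZ hairpin has 1 table, in which the authors deposited, per the file headers, RPKM of its 4 libraries, a log2 fold change, an average log2 CPM, a likelihood-ratio score, a p-value and an adjusted p-value. How genes were filtered, and whether counting used strand, is not given in the sources used here, so antisense reads cannot be told apart from a gene's own. The control columns were equal in both tables and 0 columns were unmatched.

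Of 13004 rows, 21 had date-like symbols, renamed by gene ID, and 2 repeats were dropped. RPKM steps gave whole reads (within 0.05) for 12995 genes (99.9%). The RPKM denominators were 0.951 to 1.067 times the reads in listed genes, so another scaling entered the RPKM. Values were transformed to log2(RPKM + 0.5), which understates changes near 0, genes averaging 1 RPKM or more over the compared libraries entered, and a two-sided test with a variance trend was fitted in R 4.3.3 (limma 3.58.1), with Benjamini-Hochberg adjustment at 0.05. The fit was tested on simulated data. The hairpins were compared in 1 fit of all 6 libraries.

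The 9 genes and the lists were chosen with earlier results of these data known. All 9 are named. Of each list the text gives counts, the up to 4 genes with the smallest larger p of both control comparisons, not all of them with values, and some other called genes by name after their values were seen. The 3 nearest profiles are named for members spanning at least 2 log2 units. Promoters are RefSeq's on GRCh38.p14, another build than hg19. Other settings were another pseudocount, filter, scaling, robust fit, limma-voom on recovered reads, a replicate block, other libraries in the fit and each library left out, where a lone library is assumed to vary like the others. 1 marker gene is not reported here and was left out of its list's sum.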

Additional observations from a re-analysis of the deposited data

Results flagged for a closer look

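The effects of both TAZ hairpins differed by a test of the difference itself for 5 of the 9 genes. Among all tested genes 4.78% rose and 6.10% fell in that test. Log2 differences of TAZ shRNA2 minus TAZ shRNA1 were -1.63 for MPO, -1.34 for ELANE, -1.24 for PRTN3, 2.49 for DEFA4 and 2.23 for MMP8, by limma over all 6 libraries (adjusted p = 0.00137, 0.0124, 0.0124, 0.00106 and 0.00128). In each of these genes both libraries of one hairpin lay above both of the other. Selection by the test makes that likely, so it adds no support. The calls of ELANE and PRTN3 were lost without TAZ shRNA1 A or TAZ shRNA2 B, and that of ELANE also without TAZ shRNA1 B. MMP8 reached the filter only through the TAZ shRNA2 libraries. TAZ itself was lower with TAZ shRNA2, so hairpin sequence and depth of knockdown cannot be told apart.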

How the results depend on the processing

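Over 380 values of single genes under other settings, 337 kept direction and side of the threshold, 31 became called, 8 lost their call and 4 changed sign. The sign changes were PRTN3 with TAZ shRNA1 without control B (-0.05) and without TAZ shRNA1 A (-0.02), DEFA4 with TAZ shRNA2 without control A (0.0057) and SRGN between the hairpins without TAZ shRNA2 A (-0.0996). With each library left out these values ran from -0.046 to 0.47, from -0.68 to 0.0057 and from -0.0996 to 0.51. With TAZ shRNA2 5 of the 9 genes were called, against 8 with quantile normalization. With each library left out, 4 to 8 were called with TAZ shRNA1 (8 without control A), 5 to 6 with TAZ shRNA2 and 3 to 5 between the hairpins (3 without TAZ shRNA1 A or TAZ shRNA2 B). Over all genes 1971 were called with TAZ shRNA1, 1676 with TAZ shRNA2 and 1160 between the hairpins. With a library left out these counts ran between 500 (without TAZ shRNA1 B) and 4447 (without control B), between 864 (without TAZ shRNA2 B) and 1934, and between 162 (without TAZ shRNA1 B) and 1628. With all 6 libraries in 1 fit 2584 were called with TAZ shRNA2.

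With the letter as a replicate block, 3780 genes were called with TAZ shRNA1, 4170 with TAZ shRNA2 and 2396 between the hairpins, and all 9 of the granule genes were called with TAZ shRNA2. Under the block SRGN and AZU1 were also called with TAZ shRNA1 (adjusted p = 0.03 and 0.0131), at the same log2 fold changes. Quantile normalization and limma-voom on recovered reads likewise called SRGN and AZU1 with both hairpins (adjusted p of 0.00107 to 0.0354). The labels do not pair libraries by letter. Differences of A and B correlated between groups across genes, which are not independent, at r = 0.26, 0.423 and 0.367, which is no pairing by design. The causes of these shifts were not tested. At 5 RPKM as the filter MMP8 has no value.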
